A study of Glycine soja with 4 samples.

Results

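The data described here were the 2 small RNA libraries, Al-treated and Al-free, of a series of 4 samples whose other 2 samples were degradome libraries. They were chosen by their sample type, and every distinct sequence that either library listed was counted once, which gave 217 sequences under 232 names. Both libraries came from roots of wild soybean (*Glycine soja*), strain BW69, whose seedlings stood in nutrient solution at pH 4.5 with 50 µM AlCl3 (Al-treated) or 0 µM AlCl3 (Al-free). Segments of 10 cm from the root apex were taken at 7 times between 1 and 96 h, and the roots of all times were pooled into 1 library per condition. The comparison asks which miRNAs of the root are present at other levels when aluminium is supplied. There was no replicate, no time course and no separation of tip and mature root, and every difference below is one between 2 libraries and not between conditions. Intervals are 95% intervals, exact (Clopper-Pearson) for shares and ratios and Newcombe's for differences of shares, and cover counting error only, since amplified reads are not independent molecules.

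The Al-treated library listed 208 sequences with 44493 reads, and the Al-free library listed 200 sequences with 30411 reads. The study assigned far more reads than these to known and predicted miRNAs in each library. All shares and sums below are therefore of the listed reads and not of all miRNA reads. Of the sequences, 191 were read in both. Names with the prefix gso are miRNAs of wild soybean in miRBase or other strands of their hairpins. The prefix PN marks further sequences under the number of a known plant family, and the prefix PC marks candidates predicted from a hairpin. Names written mir with p3 or p5, or with a star, stand for the other strand of a hairpin and are called listed strands below. Positions of the precursors in the genome were not analysed here.

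Plant miRNAs are cut from hairpin transcripts by Dicer-like enzymes, mostly by DCL1 to a length of 21 nt, whereas DCL3 makes 24-nt small RNAs. The first base helps to decide which Argonaute protein takes up a small RNA: AGO1 prefers U (written T here), AGO2 and AGO4 prefer A, and AGO5 prefers C. In legumes, several families, many with a 22-nt form, among them miR482, miR1507, miR1509 and miR2109, guide the cleavage of transcripts of NB-LRR disease resistance genes or of other loci and set off the production of phased secondary siRNAs. The aluminium ion is toxic to roots in acid soil and stops their elongation.

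The sequences on which the composition turned are given as listed, with the seed (bases 2 to 8, counted from the 5′ end) in capitals and the first base before it. The 22-nt sequences are shown because their class held the largest share of reads in both libraries, and because PN-miR1509b and gso-miR1509a differ in 1 base only.
gso-miR2218: tTGCCGATtccacccattccta
gso-miR1509a: tTAATCAAggaaatcacggtcg
PN-miR1509b: tTAATCAAggaaatcacggttg
gso-miR482a and gso-miR482b: tCTTCCCTacacctcccatacc
gso-miR1507a and gso-miR1507b: tCTCATTCcatacatcgtctga
PC-3-3p: cCTCATTCcaaacatcatctaa

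The 21-nt sequences and the shorter ones are shown because they led their length classes or stood at either end of the ratios between the libraries.
PN-miR159a: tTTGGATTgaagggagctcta
gso-mir2109-p3: gGAGGCGTagatactcacacc
PN-miR396a-1: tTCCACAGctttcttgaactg
PN-miR396b and PN-miR396c: tTCCACAGctttcttgaactt
PN-miR168: tCGCTTGGtgcaggtcgggaa
PN-miR166b: tCGGACCAggcttcattccct
PN-miR164: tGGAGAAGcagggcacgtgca
PN-miR156b, PN-miR156c and PN-miR156d: tGACAGAAgagagtgagcac
PN-miR1511: aACCAGGCtctgatacca

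The 24-nt sequences are shown as examples of a class with many members and few reads.
PN-miR4345: aAGCTAAGacggaacttacaaaga
PN-miR1514a: tTCATTTTtaaaataggcattggg
PN-miR1520l: cAATCAGAacatgacacgtgatag
PC-12-5p: aAATCTACatgcggatcaagttga
PC-30-3p: aAGGCTTAcggatcaagttggtat

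By length, the 22-nt class held 66.7% of the listed reads in the Al-treated library and 49.8% in the Al-free library, while the 21-nt class held 28.1% in the Al-treated library and 41.1% in the Al-free library. The difference was 17.0 percentage points for 22 nt (interval 16.3 to 17.7) and -13.0 percentage points for 21 nt (interval -13.7 to -12.3). Scaled to the whole libraries, as reads per 1000000 clean reads (RPM), the 22-nt class had 4074 RPM in the Al-treated library against 2150 RPM in the Al-free library, a ratio of 1.89 (interval 1.86 to 1.93). The 21-nt class had 1718 RPM against 1777 RPM, a ratio of 0.97 (interval 0.94 to 0.99), so that its share was lower while its RPM differed little.

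The 22-nt class had only 34 of the 217 sequences, and gso-miR2218 alone made up 64.2% of its reads in the Al-treated library and 48.1% in the Al-free library. Without gso-miR2218, the 22-nt share was 41.8% in the Al-treated library and 33.9% in the Al-free library, a difference of 7.87 points (interval 7.01 to 8.73), and the 21-nt share was 49.2% and 54.1%, a difference of -4.83 points. Without PN-miR1509b as well, the difference was 2.81 points for 22 nt (interval 1.95 to 3.68) and -0.54 points for 21 nt (interval -1.45 to 0.37). The shift between 21 and 22 nt was therefore carried for the most part by 2 sequences.

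**Figure D1:**
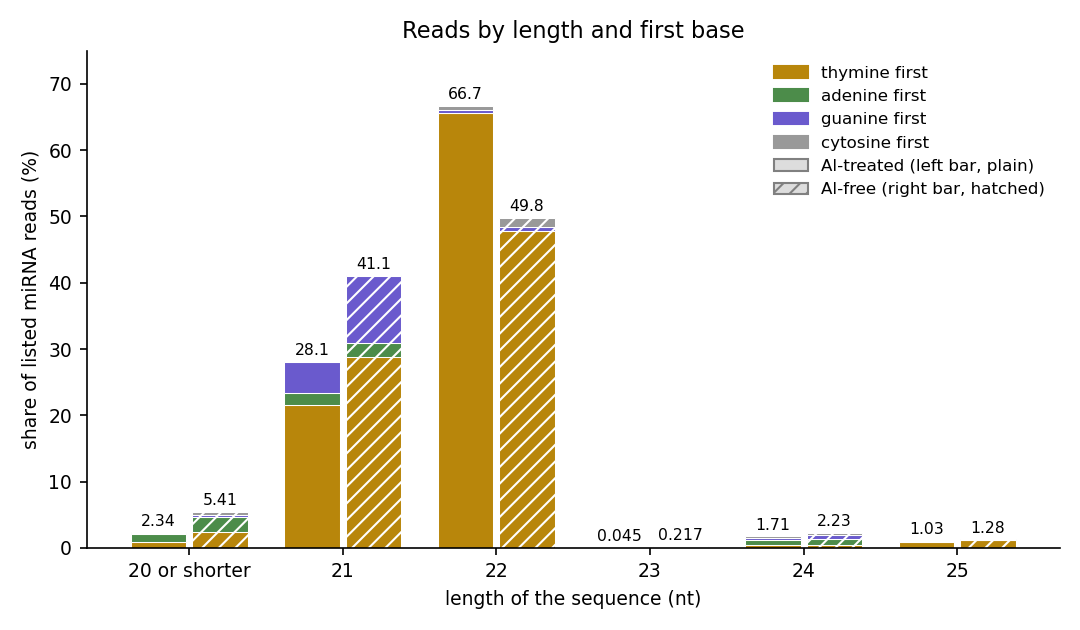
Share of the listed miRNA reads (%, vertical axis) by length of the sequence in nt (horizontal axis), with the Al-treated library as the plain left bar and the Al-free library as the hatched right bar, and the first base as the colour. The 22-nt bar stands at 66.7% in the Al-treated and 49.8% in the Al-free library, nearly all of it with thymine first.

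Sequences of 24 nt were as numerous as those of 21 nt, with 78 each, but held 1.71% of the reads in the Al-treated library and 2.23% in the Al-free library. Their median was 6.5 reads in the Al-treated library and 3.5 reads in the Al-free library. Of the 78, 39 had fewer than 10 reads in both. The most abundant of them was PN-miR4345, with 64 reads in the Al-treated and 72 in the Al-free library. The share of the class differed by -0.52 points (interval -0.73 to -0.31), but by 0.06 points without gso-miR2218 (interval -0.24 to 0.37), and its RPM had a ratio of 1.08 (interval 0.98 to 1.20). Without gso-miR2218 and PN-miR1509b the share differed by 0.33 points (interval 0.01 to 0.65). The sign of the difference in share thus depended on which leading sequences were counted, and the interval of the RPM ratio included 1.

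Sequences of 20 nt or shorter had a lower share in the Al-treated library with all sequences, with every name counted, with a minimum of 10 reads, and without the leading sequences. Its 18 sequences held 2.34% of the reads in the Al-treated library and 5.41% in the Al-free library, a difference of -3.07 points (interval -3.36 to -2.78), and -2.69 points without gso-miR2218 and PN-miR1509b. The class had 143 RPM against 234 RPM, a ratio of 0.61 (interval 0.56 to 0.66). Its leading members were PN-miR1511 with 539 reads in the Al-treated and 703 in the Al-free library, the 20-nt sequence of the miR156 family, which targets SPL transcription factors, with 137 against 369, and PC-60-3p with 208 against 298.

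The 5 sequences of 23 nt had 20 reads in the Al-treated library and 66 in the Al-free library, and the leading ones were PC-4-5p with 8 against 26 and PC-28-3p with 2 against 24. The 4 sequences of 25 nt had 460 against 389 reads, of which PC-15-5p alone held 91.7% in the Al-treated and 95.9% in the Al-free library. Neither class was more than a few sequences wide.

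Thymine, the base that AGO1 prefers, came first in 88 sequences (40.6%) but in 89.5% of the reads of the Al-treated library and 80.6% of those of the Al-free library, a difference of 8.87 points (interval 8.35 to 9.40). It was 7.11 points without gso-miR2218 and 5.56 points without PN-miR1509b as well. Guanine came first in 35 sequences, with 5.62% of the reads in the Al-treated library and 11.5% in the Al-free library, a difference of -5.85 points (interval -6.27 to -5.43). One listed strand, gso-mir2109-p3, made up 48.0% of the guanine class in the Al-treated library and 76.1% in the Al-free library. The guanine class had 343.0 RPM in the Al-treated library against 495.6 RPM in the Al-free library. The strand alone differed by -213 RPM, more than the whole class did, so the other guanine sequences together were above their Al-free level in RPM. All thymine and guanine differences in share given here kept this strand. They were not computed without it, so a shift in these shares over all lengths apart from this strand was not shown.

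Adenine came first in 63 sequences, many of them rare, with 3.80% of the reads in the Al-treated library and 5.36% in the Al-free library. This class had 232 RPM in both libraries and a ratio of 1.00 (interval 0.93 to 1.07). Cytosine came first in 31 sequences, with 474 reads in the Al-treated library and 769 in the Al-free library, an RPM ratio of 0.60 (interval 0.53 to 0.67). PC-3-3p, with 194 against 377 reads, made up 40.9% of the class in the Al-treated library and 49.0% in the Al-free library.

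The first base was tied to the length. Among 22-nt reads, 98.4% began with thymine in the Al-treated library and 96.1% in the Al-free library, from 17 of the 34 sequences. Among 21-nt reads, thymine held 76.7% against 70.0% and guanine 16.6% against 24.6%. Of the 21-nt guanine reads, gso-mir2109-p3 alone had 1201 of 2077 in the Al-treated library and 2655 of 3072 in the Al-free library. Shares of the 21-nt class without it were not computed. Among 24-nt reads, adenine was the leading first base in both libraries, with 46.0% in the Al-treated and 40.9% in the Al-free library from 41 of the 78 sequences, a difference of 5.06 points whose interval from -0.07 to 10.1 included 0. Cytosine held 9.83% of the 24-nt reads against 15.9%, a difference of -6.08 points (interval -9.59 to -2.62), in which PC-29-3p, with 10 against 57 reads, was the largest member.

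By prefix, 21 gso sequences held 72.6% of the reads in the Al-treated library and 67.6% in the Al-free library, 122 PN sequences held 21.7% and 24.5%, and 74 PC sequences held 5.64% and 7.90%. The differences were 5.05 points for gso (interval 4.38 to 5.72), -2.80 points for PN (interval -3.41 to -2.18) and -2.25 points for PC (interval -2.63 to -1.88). These directions rested on gso-miR2218: without it the difference was -5.26 points for gso and 5.78 points for PN. Without PN-miR1509b as well, all 3 differences had intervals that included 0, with -0.73 points for gso, 0.38 points for PN and 0.35 points for PC.

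The prefixes also differed in how deeply their sequences were read. The median gso sequence had 275 reads in the Al-treated library and 224 in the Al-free library, the median PC sequence 13.5 and 11, and the median PN sequence 4 and 2, and 82 of the 122 PN sequences were under 10 reads in each library. Of the 74 PC sequences, 19 carry the name of a known family in the study's own table of miRNAs, such as PC-13-3p for miR403 and PC-29-3p for miR2111. With these 19 counted as PN, the difference was -3.38 points for PN and -1.67 points for PC.

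The 53 listed strands held 6.07% of the reads in the Al-treated library and 11.9% in the Al-free library, a difference of -5.81 points (interval -6.23 to -5.38). Of their reads, gso-mir2109-p3 had 1201 of 2701 in the Al-treated library and 2655 of 3612 in the Al-free library. The 90 sequences with a miRNA name held 88.3% against 80.2%. A listed strand was not always the rarer one. The named gso-miR2109 had 643 reads in the Al-treated library and 796 in the Al-free library. The study found gso-mir2109-p3, PN-mir4415-p3 and gso-mir1510b-p5 more often than their named partners and proposes that they might be the mature miRNAs.

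**Figure D2:**
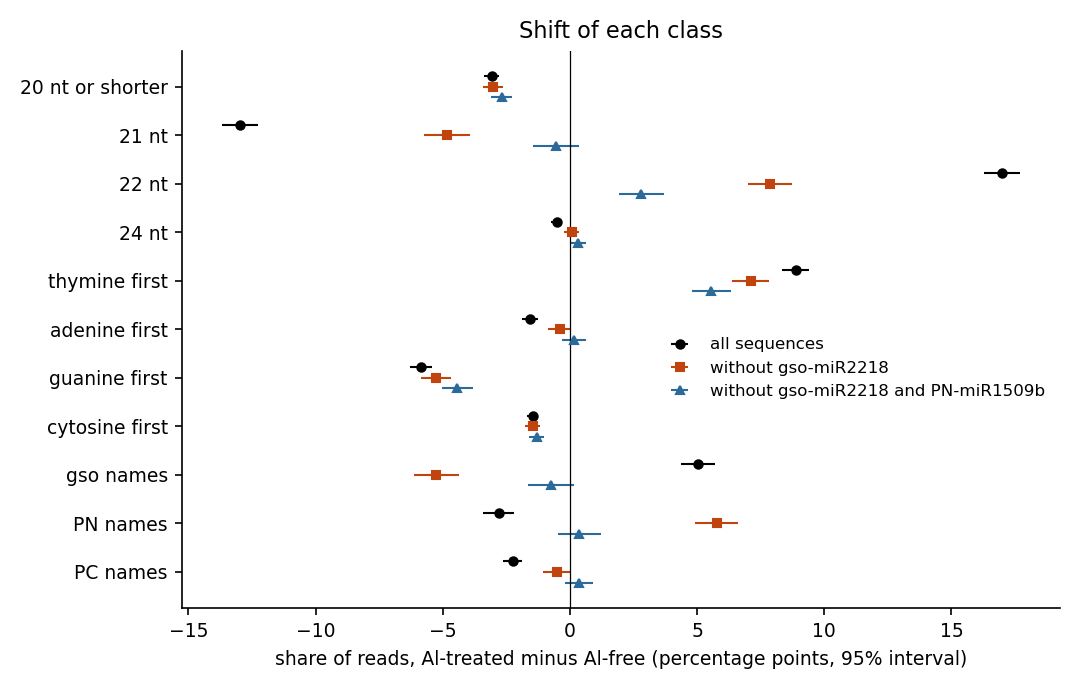
Difference in the share of reads, Al-treated minus Al-free (percentage points, horizontal axis, with 95% intervals), for classes of length, first base and name prefix. Black points use all sequences, red squares leave out gso-miR2218 and blue triangles leave out PN-miR1509b as well; for 22 nt the value is 17.0, 7.87 and 2.81 points.

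A few sequences held most of the reads. The leading sequence was gso-miR2218 in both libraries, the 5 leading sequences held 66.2% of the reads in the Al-treated library and 58.9% in the Al-free library, and the 10 leading ones held 78.6% and 73.4%. In the Al-treated library 3 sequences made up 50% of the reads and 21 made up 90%, against 4 and 23 in the Al-free library. The effective number of sequences, the number of equally abundant sequences that would give the same Shannon entropy, was 14.0 in the Al-treated library and 21.1 in the Al-free library. By the inverse Simpson index, which weighs abundant sequences more, it was 4.94 against 10.1.

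Without gso-miR2218 this order turned round. The Shannon number was then 30.8 in the Al-treated library and 26.8 in the Al-free library, and the leading sequence, gso-miR1509a in both, held 12.1% against 17.5%. The greater number of sequences in the Al-treated library went with its depth: thinned to the 30411 reads of the Al-free library, 199.3 sequences were expected in it, against the 200 listed in the Al-free library.

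**Figure D3:**
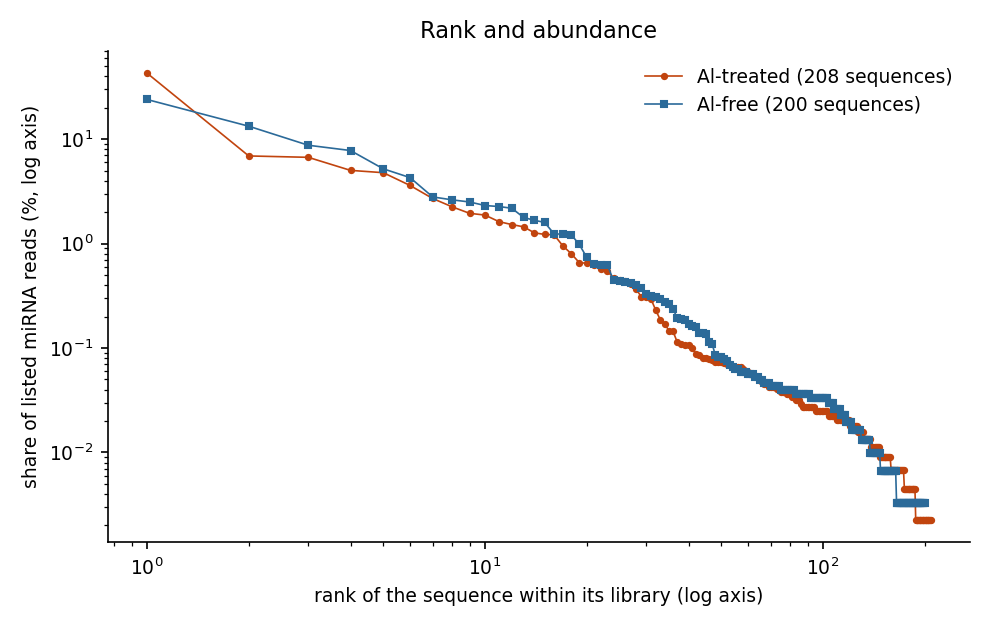
Share of listed miRNA reads (%, log axis) against the rank of the sequence within its library (log axis), with the Al-treated library as red circles and the Al-free library as blue squares. At rank 1 the Al-treated library stands higher, with 42.8% against 23.9%, and at ranks 2 to 5 it stands lower.

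The rank order was similar in the 2 libraries. Spearman's rho was 0.83 over the 217 sequences and 0.68 over the 130 with at least 10 reads in 1 library, given as a description, since the sequences share their libraries. The 10 leading sequences had 7 in common and the 50 leading sequences had 41 in common. The ranks 1, 2 and 6 were held by gso-miR2218, gso-miR1509a and the sequence of gso-miR1507a and gso-miR1507b in both libraries.

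Within the leading ranks, PN-miR1509b was ranked 4 in the Al-treated library and 23 in the Al-free library. The 21-nt PN-miR396a-1, of a family that targets GRF growth regulators, was ranked 12 against 35. In the other direction, gso-mir2109-p3 was ranked 7 against 3, PN-miR168, which targets AGO1, 14 against 7, and PN-miR166b, of a family that targets HD-ZIP III transcription factors, 19 against 11.

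Larger steps in rank came from sequences with few reads. PN-miR1520l was ranked 69 in the Al-treated library with 19 reads and had 1 read in the Al-free library, and PC-13-3p was ranked 41 with 44 reads against 122 with 5 reads. PC-28-3p was ranked 174 with 2 reads against 51 with 24 reads, and PN-miR1513 139 with 5 reads against 57 with 18 reads. Each of these 4 sequences had 5 or fewer reads in 1 library.

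**Figure D4:**
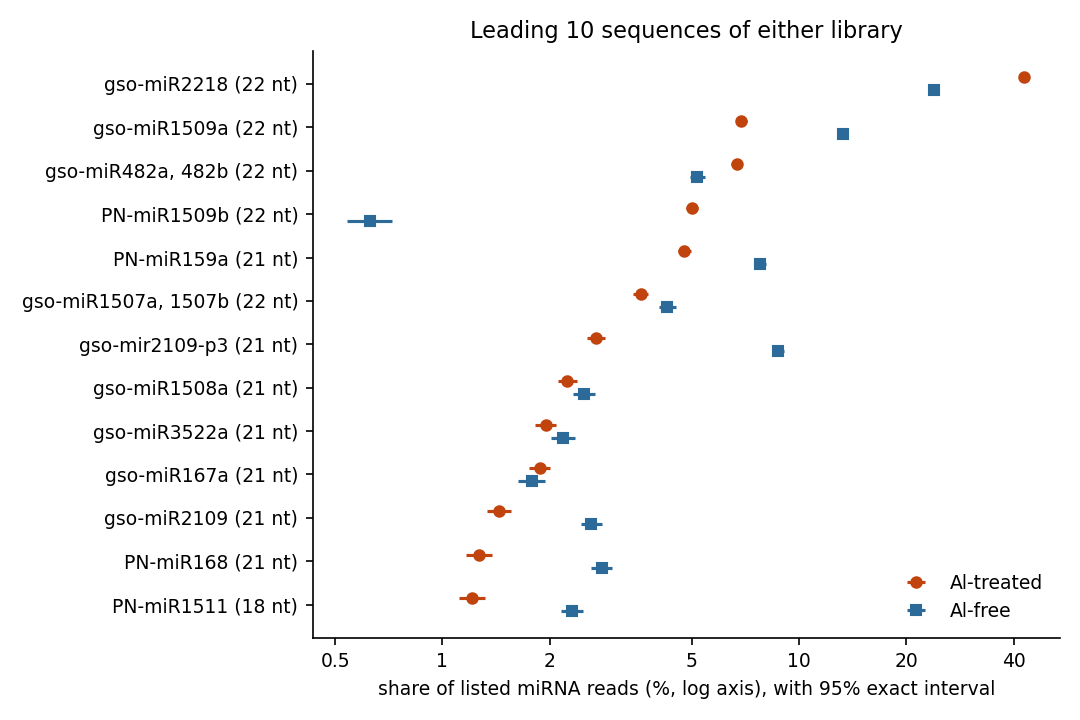
Share of listed miRNA reads (%, log axis, with 95% exact intervals) of the 13 sequences that were among the leading 10 of either library, Al-treated as red circles above Al-free as blue squares. The pair of points lies farthest apart for PN-miR1509b, at 5.02% in the Al-treated and 0.62% in the Al-free library.

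Summed over all sequences, the Al-treated library had 6105 RPM and the Al-free library 4322 RPM, a ratio of 1.41 (interval 1.39 to 1.43). Of the difference of 1783 RPM, gso-miR2218 accounted for 1581, PN-miR1509b for 279 and the sequence of gso-miR482a and gso-miR482b for 184. In all 126 sequences were above their Al-free level, by 2519 RPM together, and 91 were below it, by -736 RPM together, of which gso-mir2109-p3 made -213 and gso-miR1509a -153. Without gso-miR2218 the ratio of the sums was 1.062 (interval 1.04 to 1.08), and without PN-miR1509b as well it was 0.98 (interval 0.96 to 0.99).

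Single sequences were compared by the log2 ratio of RPM, Al-treated over Al-free. A sequence was called where this ratio was at least 1 (higher) or at most -1 (lower) and the sequence had at least 10 reads (gso and PN names) or 20 reads (PC names) in 1 of the libraries. Of the 86 sequences that met this minimum, 25 (29.1%) were called higher and 13 (15.1%) lower, 44.2% in all, and their median log2 ratio was 0.25. With no replicates these calls are of size alone. The interval of the ratio lay above 0 for 30 sequences and below 0 for 23, and it included 0 for 33. Of the called sequences 13 had fewer than 10 reads in 1 library, and the whole interval was beyond the threshold for 12 higher and 8 lower ones. Other scalings of the libraries moved every log2 ratio by the same amount, by -0.11 with the study's normalization factors, by -0.25 with the median of ratios and by -0.50 with the summed listed reads. With the last of these, 15 sequences were called higher and 23 lower, and 39.5% of the calls were higher ones against 65.8% with clean reads.

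Read against these shares, the classes of length stood as follows. Of the 15 sequences of 22 nt that met the minimum, 7 were called higher and 1 lower, with a median log2 ratio of 0.87. Of the 45 of 21 nt, 12 were called higher and 5 lower, with a median of 0.34, close to the shares over all sequences. Of the 9 of 20 nt or shorter, 0 were called higher and 3 lower, 8 had a ratio below 0, and the median was -0.57. Of the 13 of 24 nt, 5 were called higher and 2 lower, with a median of 0.21.

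By first base, 6 of 12 sequences with adenine were called higher and 0 lower, with a median of 0.70, while 3 of 10 with cytosine were called higher and 5 lower, with a median of -0.80. Thymine had 11 of 45 higher and 5 lower and guanine 5 of 19 higher and 3 lower. By prefix, 3 of 16 gso sequences were called higher and 1 lower, 13 of 40 PN sequences higher and 5 lower, and 9 of 30 PC sequences higher and 7 lower. The gso class, which had the largest gain in reads, thus had a lower share of called sequences than the 44.2% over all. Of the 13 listed strands that met the minimum, 4 were called higher and 1 lower, with a median of 0.40. Over all sequences the shares were 29.1% and 15.1%.

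**Figure D5:**
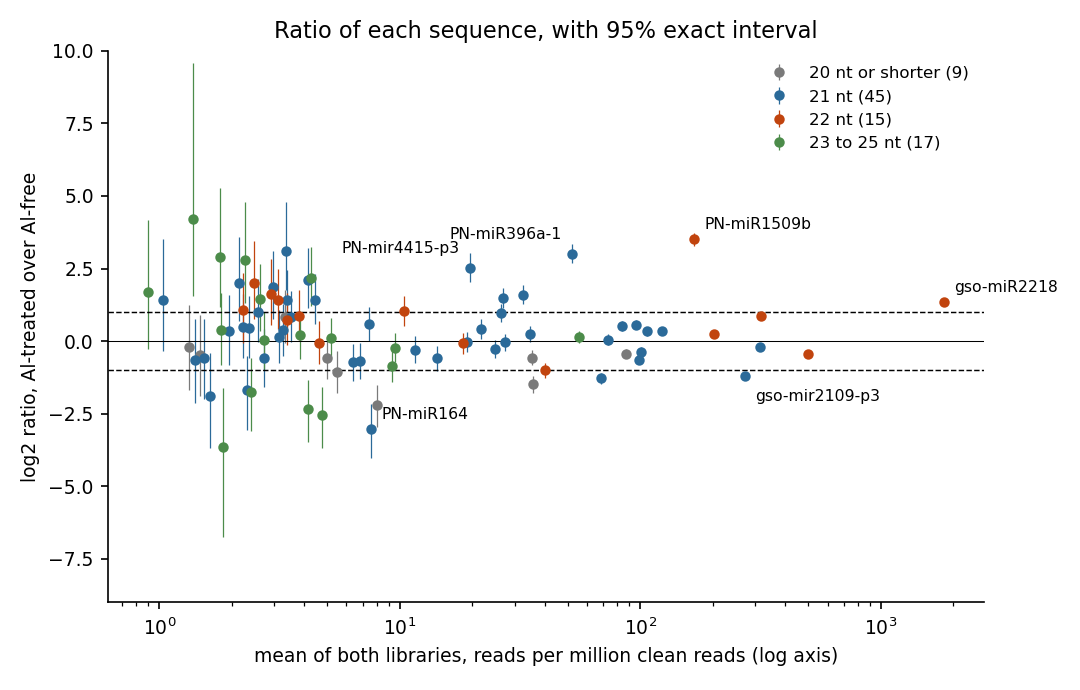
Log2 ratio, Al-treated over Al-free (vertical axis, with 95% exact intervals), against the mean level of both libraries in RPM (reads per 1000000 clean reads, log axis) for the 86 sequences that met the minimum, coloured by length. Dashed lines mark the threshold of 1 and -1; intervals are wide at the low end, and among the abundant sequences PN-miR1509b (3.50) and PN-miR396a-1 (3.01) stand highest.

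Families that target NB-LRR transcripts or set off phased siRNAs held 72.3% of the reads in the Al-treated library and 63.3% in the Al-free library, with 22 sequences, gso-miR2218 counted with them. Of the 16 that met the minimum, 5 were called higher and 2 lower, with a median log2 ratio of 0.15, so the share called higher was close to the 29.1% over all. The gain in reads lay in gso-miR2218, whose log2 ratio was 1.34 (interval 1.30 to 1.38) and 0.84 with the summed listed reads, in PN-miR1509b and in the sequence of gso-miR482a and gso-miR482b, with 2976 reads against 1579 and a ratio of 0.86 (interval 0.78 to 0.95). The other abundant members were near to or below their Al-free level, gso-miR1507a and gso-miR1507b at 0.25 (-0.25 with the summed listed reads), gso-miR2109 at -0.36 and gso-miR1509a at -0.45. PC-3-3p, whose sequence is also named PN-miR1507c, was called lower at -1.01 (interval -1.27 to -0.76), and so was gso-mir2109-p3, the other strand of the gso-miR2109 hairpin, with 1201 reads against 2655 (log2 ratio -1.20, interval -1.29 to -1.10).

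Of the miR1509 family, PN-miR1509b was above and gso-miR1509a below its Al-free level. They share the seed and differ by the substitution C21T, from gso-miR1509a to PN-miR1509b. PN-miR1509b had 2232 reads in the Al-treated library against 190 in the Al-free library (log2 ratio 3.50, interval 3.29 to 3.72), while gso-miR1509a had 3068 against 4040, a log2 ratio of -0.45 (interval -0.52 to -0.38). The reads of PN-miR1509b were 0.728 times those of gso-miR1509a in the Al-treated library (interval 0.689 to 0.769) and 0.047 times in the Al-free library (interval 0.040 to 0.054). Of the other strands of the family, gso-mir1509a-p3 was called higher, with 34 reads against 9 (log2 ratio 1.87, interval 0.78 to 3.11), and PN-mir1509b-p3, with 7 against 4, was under the minimum.

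The miR396 family, which targets GRF genes, had the same kind of pair. PN-miR396a-1 differs from the sequence of PN-miR396b and PN-miR396c by the substitution G21T and shares its seed. PN-miR396a-1 had 676 reads in the Al-treated library against 81 in the Al-free library (log2 ratio 3.01, interval 2.68 to 3.36), and the other had 255 against 126, a ratio of 0.97 (interval 0.65 to 1.29). Both were above their Al-free level, by unequal amounts, but only PN-miR396a-1 was called higher. PN-miR396a-1 was read 2.65 times as often as the other in the Al-treated library (interval 2.29 to 3.07) and 0.643 times as often in the Al-free library (interval 0.480 to 0.857).

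Shared seeds were few. The 217 sequences had 200 distinct seeds, of which 15 were shared by 32 sequences. In the miR160 family, which targets auxin response factors, PN-miR160b and PN-miR160c differ by T15C and had nearly the same log2 ratio, -0.28 and -0.29, with intervals that included 0. In the miR390 family, which targets the TAS3 precursor of siRNAs against auxin response factors, PN-miR390b and PN-miR390a-1 differ by A19G and were both called higher, with 36 reads against 13 (log2 ratio 1.42) and 25 against 12 (log2 ratio 1.01), although the interval of PN-miR390a-1, from -0.04 to 2.14, included 0 and its ratio was under the threshold with each of the other scalings. With the summed listed reads PN-miR390b was under it as well, at 0.92. The seed of gso-mir1510a-p5 and gso-mir1510b-p5 was shared by a called and an uncalled strand, with 25 reads against 6 (log2 ratio 2.01) and 544 against 507 (log2 ratio 0.05).

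The families that target growth and development transcription factors had 33 sequences and 10.8% of the reads in the Al-treated library against 15.8% in the Al-free library. Their RPM had a ratio of 0.96 (interval 0.93 to 1.00). Of the 16 sequences that met the minimum 2 were called higher and 4 lower, against 29.1% and 15.1% over all. Their median log2 ratio was -0.13. The leading one, PN-miR159a, of a family that targets GAMYB-like transcription factors, had 2121 reads in the Al-treated library and 2363 in the Al-free library, a ratio of -0.21. The sequence of PN-miR319a and PN-miR319b, of a family that targets TCP factors, had 720 against 485, a ratio of 0.52.

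The called members of these families lay far apart. PN-miR396a-1 and PN-miR169c, of a family that targets NF-YA subunits, were called higher, PN-miR169c with 47 reads in the Al-treated library against 17 in the Al-free library, although its log2 ratio was 0.92, under the threshold, with the summed listed reads. PN-miR164, of a family that targets NAC transcription factors, had 12 reads against 95, a log2 ratio of -3.04 (interval -4.04 to -2.16). PN-miR166b had 292 against 687, a ratio of -1.29 (interval -1.49 to -1.09), and the 20-nt PN-miR166 had 21 against 93. The 20-nt sequence of PN-miR156b, PN-miR156c and PN-miR156d had a ratio of -1.48 (interval -1.77 to -1.19), while the 21-nt sequence of the same family, with 197 reads against 195, had a ratio of -0.04. Since the names PN-miR156c and PN-miR156d stand on both sequences, the values belong to sequences and not to names.

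Auxin-related families (miR160, miR167, miR390 and miR393) had 9 sequences with 1193 reads in the Al-treated library and 893 in the Al-free library, an RPM ratio of 1.29 (interval 1.18 to 1.41). Their share of the listed reads was lower in the Al-treated library, 2.68% against 2.94%. Of the 8 that met the minimum, PN-miR390b and PN-miR390a-1 were called higher and 0 lower, against 29.1% and 15.1% over all. At this number of sequences the share called higher was near that over all. PN-mir390b-p3, the other strand of that family, had 9 reads against 13 (log2 ratio -0.58, interval -1.99 to 0.76). The most abundant was gso-miR167a, which targets auxin response factors, with 833 reads against 541, a log2 ratio of 0.57 (interval 0.41 to 0.73).

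The families that target the silencing machinery itself had 6 sequences and a lower sum, with 776 reads in the Al-treated library against 977 in the Al-free library and an RPM ratio of 0.77 (interval 0.70 to 0.84). Their members did not move as 1 group. PN-miR168, which targets AGO1, had 563 reads against 850, a log2 ratio of -0.65 (interval -0.80 to -0.49), and PN-miR162, which targets DCL1, had 35 against 56, a ratio of -0.73 (interval -1.38 to -0.09). With the summed listed reads both were past the threshold as lower, at -1.14 for PN-miR168 and -1.23 for PN-miR162. PC-13-3p, also named PN-miR403a and PN-miR403b, of a family that targets AGO2, had 44 against 5, a ratio of 3.09 (interval 1.76 to 4.78). PN-miR1515, which targets DCL2 in soybean, had 102 against 48, a ratio of 1.04 (interval 0.53 to 1.56), and was under the threshold with each of the other 3 scalings, at 0.93, 0.79 and 0.54.

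Families that respond to phosphate or copper supply were barely read, with 65 reads in the Al-treated library and 85 in the Al-free library over 11 sequences. Only 2 met the minimum. PC-29-3p, also named PN-miR2111, was called lower with 10 reads against 57, a log2 ratio of -2.56 (interval -3.70 to -1.58), and PN-miR2111a had 31 against 17, a ratio of 0.82 (interval -0.08 to 1.76). Nothing can be said at this depth of miR398 and miR399, which act on copper enzymes and on phosphate uptake and had 5 or fewer reads per sequence.

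Among families outside these lists, the strand PN-mir4415-p3 was read 243 times in the Al-treated library and 41 times in the Al-free library (log2 ratio 2.52, interval 2.04 to 3.03). The sequence of PC-6a-3p and PC-6b-3p, also named PN-miR862a and PN-miR862b, had 355 against 113, a ratio of 1.60 (interval 1.29 to 1.92). PN-miR1514a, PC-19-5p and PN-miR4369 were called higher on fewer reads, with 51 against 11, 49 against 11 and 23 against 3. The study also measured some miRNAs by quantitative PCR and reports similar patterns for most of them, with much smaller fold changes. For PN-miR862a it reports no change, and for PN-miR1514a a pattern unlike that of the sequencing. PC-1-5p, with 10 against 49 reads, and PC-63-3p, with 8 against 25, were called lower. Of the 10 highest called ratios 5 had under 10 reads in the Al-free library and 2 had 11 reads there.

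Sequences read in 1 library only were rare ones. In the Al-treated library 17 such sequences had 56 reads together, 9 of them of 24 nt and 10 of them listed strands, and in the Al-free library 9 such sequences had 12 reads together, 4 of them of 24 nt and 5 of them listed strands. A count of 0 allows up to 3 reads, and more than that was found for 4 sequences in the Al-treated library and for 0 in the Al-free library. PC-12-5p had 12 reads in the Al-treated library and 0 in the Al-free library, 3.86-fold higher in RPM when set against 3 reads. PC-30-3p had 11 and 0, 3.54-fold higher when set against 3 reads. With counting error included, the intervals of their log2 ratios began at 1.42 for PC-12-5p and 1.28 for PC-30-3p. PN-miR1520i and PN-miR169p had 4 reads each in the Al-treated library and 0 in the Al-free library, 1.29-fold higher when set against 3 reads. The intervals of their log2 ratios began at -0.65, so no difference was shown for either.

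The degradome libraries of the same pooled roots gave another readout, a list of target transcripts found cleaved. The Al-treated list held 78 pairs of a miRNA name and a gene, and the Al-free list held 46. Of the 217 sequences, 36 were counted as having a name or a family with a listed target. Listed strands counted only under their own name, while PC sequences also counted by the family of their name in the study, as PC-55-3p did. The strand gso-mir167a-p3, with 9 reads against 12, was not counted, although the study names a target for it. The 36 sequences held 25.9% of the small RNA reads in the Al-treated library and 33.5% in the Al-free library, a difference of -7.59 points (interval -8.26 to -6.92). Their RPM ratio was 1.09 (interval 1.063 to 1.12), and without gso-miR2218 among the listed reads their share was 45.3% in the Al-treated library and 44.0% in the Al-free library, a difference of 1.27 points. With all sequences of the same families counted, 51 in number, the RPM ratio was 0.998 (interval 0.975 to 1.02) and the share differed by -13.6 points, or by -3.66 points without gso-miR2218. Of the 22 that met the minimum, 5 were called higher and 2 lower, against 29.1% and 15.1% over all. Several of the most abundant sequences had no listed target in either library, among them gso-miR2218, the sequence of gso-miR482a and gso-miR482b, gso-miR1507a and gso-miR1507b, gso-miR1508a and PN-miR168. In contrast, gso-miR1509a, PN-miR159a and PN-miR1509b belonged to families with a listed target.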

How the data were processed

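The values are raw read counts that the authors deposited for each miRNA name and sequence of 2 small RNA libraries, with no normalization. To make them, the authors removed reads without adaptor, short and junk reads and whatever matched mRNA, Rfam or repeat sequences, and assigned the rest to miRBase miRNAs or to predicted hairpins with ACGT101-miR (version 4.2). Reads that fall on transcripts are therefore missing from the lists. The degradome lists, made by the authors with CleaveLand 3.0 and ACGT301-DGE 1.0, hold names of miRNAs and genes and no value.

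Blank lines and footnote letters stuck to 2 names were removed, and names with the same sequence were merged. Reads were scaled by the clean reads of each library, as the study gives them, because the lists hold part of a library. They also hold only part of the reads that the study assigned to miRNAs. Shares, exact and Newcombe intervals of 95%, ranks, Shannon and Simpson numbers, log2 ratios and seeds were computed with Python 3.11.15, NumPy 2.4.6 and SciPy 1.17.1, and figures drawn with matplotlib 3.10.9. The intervals were tested on simulated counts that held counting error only, which is the error the intervals assume. That test says nothing of the spread between libraries or of amplification. No p-value was computed, since each condition had 1 library. Depth sets the precision: with 19061 and 7282 reads the log2 ratio of gso-miR2218 has an interval from 1.30 to 1.38, and with 19 and 1 reads that of PN-miR1520l has one from 1.54 to 9.57.

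Named were the 10 leading sequences of each library, the 10 highest and 10 lowest called ratios, the 2 leading sequences of each class, the 3 leading sequences of each family list, sequences with over 3 reads in 1 library and 0 in the other, and those that share a seed with one of these. PN-miR169c, PN-miR390b, PN-miR390a-1, PC-47-3p and the 21-nt miR156 sequence fall outside this rule and were chosen after their values were seen. Also outside the rule are gso-mir1509a-p3, PN-mir1509b-p3, PN-mir390b-p3, gso-mir167a-p3 and PC-55-3p. The members and the family lists were chosen with earlier results of these data known. Alternatives were other scalings, read minimums, counting by name, and leaving out the most abundant sequences.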

Additional observations from a re-analysis of the deposited data

How the results depend on the processing

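No paired analysis was possible because each condition had 1 library. Differences of shares, Al-treated minus Al-free in percentage points, moved as follows. With every listed name counted they were -10.9 for 21 nt, 15.8 for 22 nt, 7.09 for thymine, -4.56 for guanine, -4.09 for PN and -1.45 for PC, and 16.5 for the leading sequence. Without gso-miR2218 they were -4.83 for 21 nt, 7.87 for 22 nt, 0.064 for 24 nt, 7.11 for thymine, -5.25 for guanine, -5.26 for gso, 5.78 for PN and -0.51 for PC, and -5.40 for the leading sequence. Without PN-miR1509b as well they were -0.54 for 21 nt, 2.81 for 22 nt, 0.33 for 24 nt, 5.56 for thymine, -4.43 for guanine, -0.73 for gso, 0.38 for PN and 0.35 for PC. The signs of 24 nt, gso, PN and the leading sequence turned without gso-miR2218, and that of PC turned only without PN-miR1509b as well. These 2 sequences held much of the reads, so leaving them out changes every other share. Every setting kept gso-mir2109-p3, the leading guanine sequence, so the differences for thymine and guanine were not tested without it. With candidates of a known name counted as PN, PC differed by -1.67. A minimum of 10 reads in 1 library moved none of these beyond its interval. The share of families with a listed degradome target differed by 1.27 without gso-miR2218, by -13.6 with all sequences of the same families counted, and by -3.66 with both.

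The ratio of summed RPM was 1.062 without gso-miR2218, 0.98 without PN-miR1509b as well, and 1.31 with the study's normalization factors. Sequences called higher and lower numbered 15 and 23 with the summed listed reads, 51 and 30 with no minimum and a pseudocount of 1 read, 8 and 8 with a minimum of 50 reads, and 12 and 8 with the whole interval past the threshold. With the study's factors they were 22 and 13 and with the median of ratios 22 and 14. Sequences read in 1 library only, with at least 5 reads, numbered 2 in the Al-treated library and 0 in the Al-free library. Of the 48 named sequences with a ratio, 1 was no longer past the threshold and 0 were newly past it with the study's factors, 2 and 4 with the summed listed reads, and 1 and 1 with the median of ratios.

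Leaving out PN-miR1509b, the settings for families with degradome targets, counting candidates by their known names, the minimum of 10 reads for such names and thinning were chosen after seeing the data. With 1 pooled library per condition the spread between plants is unknown, and only 13 of the 78 sequences of 24 nt met the read minimum.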

Other observations

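Some listed sequences were parts of each other. Of the 217 sequences, 5 pairs were contained in one another, 4 pairs overlapped by at least 16 nt and 9 pairs of equal length differed by 1 substitution. PC-4-5p, with 8 reads in the Al-treated library and 26 in the Al-free library, is PC-4-3p without its last base, and PC-4-3p had 48 against 84. PC-47-3p overlaps both and had 11 against 9. The 20-nt PN-miR157d, with 9 reads against 10, is contained in the 21-nt sequence of PN-miR156c, PN-miR156d, PN-miR156e and PN-miR156g, with 197 against 195. In these groups the reads of a shorter form and of a longer form were listed as separate sequences.

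Among predicted candidates, the 25-nt PC-15-5p was the most abundant, with 422 reads in the Al-treated library and 373 in the Al-free library (log2 ratio 0.13, interval -0.08 to 0.33). PC-33-3p, also of 25 nt, had 29 against 4, a log2 ratio of 2.81 (interval 1.30 to 4.78), and PC-28-3p, of 23 nt, had 2 against 24, a log2 ratio of -3.64 (interval -6.76 to -1.63).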
